A study of Homo sapiens with 6 samples.

Results

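The mitotic kinesins and the spindle and cytokinesis genes are a list of 37 human genes whose products build the mitotic spindle, move chromosomes on it and divide the cell. They were chosen by name, with earlier results of these data known. A gene was measured where the array's annotation gives at least 1 probe set to its symbol alone. That held for 36 of the 37, out of 19775 genes measured in all, with 65 probe sets among them. CIT, the citron kinase of the midbody, has no such probe set and is not analysed as a gene. The cells were MDA-MB-231, an established human breast cancer line of mesenchymal appearance. Of 6 Affymetrix arrays, 3 came from cells transfected with an HS3ST2 expression plasmid and 3 from cells transfected with a control vector. HS3ST2 is a heparan sulfate 3-O-sulfotransferase. No source names the plasmid's promoter, the time from transfection to RNA, or any selection or cloning of cells, and nothing says that the replicates were separate transfections, so p-values measure the spread between these arrays.

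Mitosis depends on a bipolar array of microtubules. Motor proteins of the kinesin family slide, shorten and cross-link these microtubules, and the kinases AURKA and PLK1 time their assembly. After the chromosomes part, the antiparallel microtubules of the central spindle recruit a regulator of RhoA, which sets the place of the contractile ring, and the daughter cells separate at the midbody. Most of these genes are transcribed late in the cell cycle, under the MuvB complex with B-MYB (MYBL2) and FOXM1. MuvB binds a short promoter element called the cell cycle genes homology region, or CHR, and NF-Y binds CCAAT boxes nearby.

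The promoters of the members bear on what they share beyond function, so stretches from 7 of them are shown. Each is the 100 bases before the transcription start in RefSeq's promoter table (GRCh38.p14), written 5′ to 3′ on the strand of the gene. Capitals mark a CHR match (TTTGAA, its reverse complement TTCAAA, or TTCGAA, which is its own reverse complement) or a CCAAT box (CCAAT, or ATTGG for the other strand). The first 5 belong to genes that were lower in the HS3ST2-labelled arrays, with and without matches, and the last 2 to genes that were not called. The 7 were picked by hand and do not stand for all members. GTSE1 and BORA, also not called, held both motifs in their promoters and are not shown.
KIF20A: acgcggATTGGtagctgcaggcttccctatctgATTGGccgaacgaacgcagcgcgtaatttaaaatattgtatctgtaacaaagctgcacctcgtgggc
KIF2C: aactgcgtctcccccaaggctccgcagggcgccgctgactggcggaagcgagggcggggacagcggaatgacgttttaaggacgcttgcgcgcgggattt
PLK1: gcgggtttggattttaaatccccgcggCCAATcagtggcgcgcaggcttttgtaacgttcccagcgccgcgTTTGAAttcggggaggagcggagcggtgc
PRC1: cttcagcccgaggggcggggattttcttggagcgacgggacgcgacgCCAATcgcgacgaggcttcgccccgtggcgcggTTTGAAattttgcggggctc
KIF4A: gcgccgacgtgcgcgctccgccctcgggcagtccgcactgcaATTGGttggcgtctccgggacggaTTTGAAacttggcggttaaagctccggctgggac
NUMA1: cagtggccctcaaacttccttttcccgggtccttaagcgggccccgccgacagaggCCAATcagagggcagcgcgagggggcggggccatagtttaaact
CKAP2: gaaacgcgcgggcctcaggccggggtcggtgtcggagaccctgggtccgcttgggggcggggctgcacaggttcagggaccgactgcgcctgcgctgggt
The windows are chr5:138179012-138179111 (plus strand) for KIF20A, chr1:44739737-44739836 (plus strand) for KIF2C, chr16:23678789-23678888 (plus strand) for PLK1 and chr15:90994536-90994635 (minus strand) for PRC1. Those of the other three genes are chrX:70290004-70290103 (plus strand) for KIF4A, chr11:72080543-72080642 (minus strand) for NUMA1 and chr13:52455888-52455987 (plus strand) for CKAP2. In PLK1, PRC1 and KIF4A a CCAAT box was followed by a CHR match. KIF20A held 2 CCAAT boxes and no CHR match, NUMA1 held a CCAAT box alone, and KIF2C and CKAP2 held neither.

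The table held 37 promoters of 33 members, each of 300 bases, 250 before and 50 after the start. AURKA, FAM83D, RACGAP1 and TPX2 were not among them. A CHR match was found in 28 of the 37 (75.7%), against 16.4% of all 35116 promoters in the table and 13.6% of the 21490 promoters of measured genes. A CCAAT box was found in 27 (73.0%), against 34.6% of all promoters, and both in 22 (59.5%), against 6.38%. A CHR match starting 20 to 50 bases after the start of a CCAAT box, a spacing chosen after the matches were seen, occurred in 15 of the 37 (40.5%) and in 1.01% of all promoters. Matches on either strand and overlapping matches counted. The CHR matches lay at a median position of -26.5 from the start, negative being before it, and the CCAAT boxes at a median position of -67. Among members called lower, 23 of 28 with a promoter held a CHR match, among those not called 2 of 4 did (GTSE1 and BORA), and CIT, not measured, was the other gene with a promoter. Outside the members, 2971 promoters belonged to genes called lower. A CHR match was in 13.9% of these, against 13.6% of promoters of measured genes, and a CCAAT box in 35.4%, against 34.5%. The spaced pair was in 1.88%, against 0.907%. The genes with neither motif were KIF2C and TACC3, which fell, and CKAP2, which was not called. A match describes these letters only and is not a measured binding site.

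**Figure D1:**
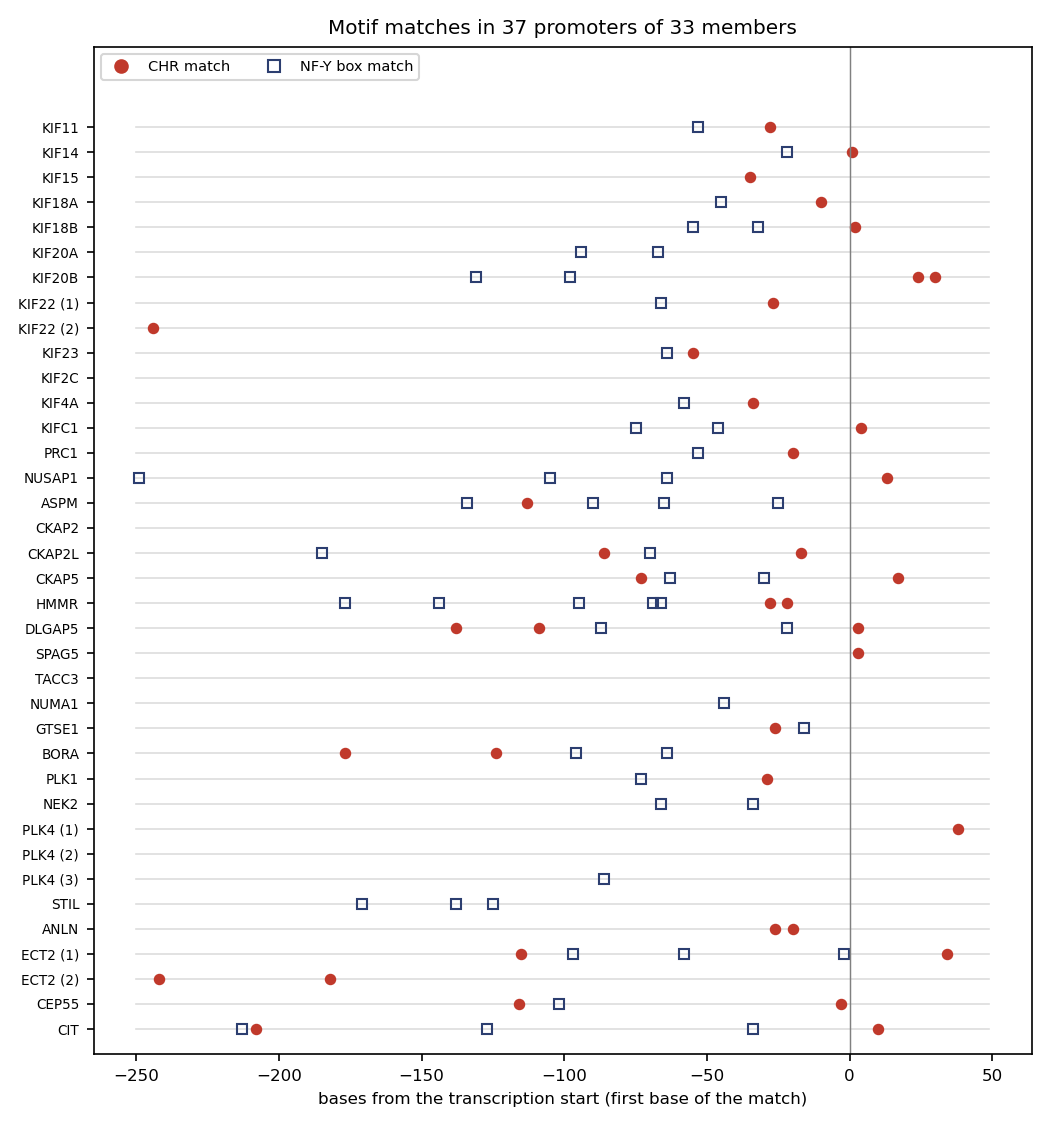
Each line is 1 of 37 promoters of 33 members, and the horizontal axis is the distance in bases from the transcription start at 0. Filled circles mark CHR matches and open squares mark CCAAT (NF-Y) boxes; all 51 squares lie before the start, with a median position of -67, and circles lie closer to it, with a median position of -26.5.

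All values below are log2 values relative to the median of the 6 arrays for each probe set, because the deposited table had been centred in this way. Levels of different genes therefore cannot be compared, and the labelled cell type could not be checked against the level of its markers. Where the groups lie apart in a single probe set, this centring also makes the highest array of the lower group the mirror image of the lowest array of the higher group. The only HS3ST2 probe set gave 0.16, 0.04 and -0.04 in the arrays labelled HS3ST2 and -0.22, 0.17 and -0.11 in the control arrays. The difference of 0.11 ± 0.10 (SE, n = 3 per group) had a 95% interval from -0.13 to 0.35 and did not pass (limma adjusted p 0.523), so the arrays are called HS3ST2-labelled and directions rest on the labels. The median of 6 probe sets for ribosomal RNA was 0.02, 0.16 and 0.74 in the HS3ST2-labelled arrays and -0.20, -0.06 and -0.29 in the control arrays. Its part in the results was not tested. The count of members is also given without HS3ST2 replicate 3, where it was highest. Every HS3ST2-labelled array lay above every control array in this signal, so that count cannot separate it from the groups.

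Of 36 measured members, 32 fell (88.9%), none rose and 4 did not pass, at a Benjamini-Hochberg adjusted p under 0.05 by limma over all 19775 genes. Over all genes, 13.0% were called lower and 11.5% higher. As the list was chosen with earlier results of these data known, such contrasts describe the members and are no independent test. At an unadjusted p under 0.05, 33 members were lower and none was higher. The share of all genes at that limit was not counted, here or for the lists below. The median difference, HS3ST2-labelled minus control, was -0.84 log2 among the members and 0.01 among all genes. In 34 members every HS3ST2-labelled array lay below every control array, which was so for 20.9% of all genes. A fall of at least 1 log2 was called in 10 members (27.8% of them), against 0.470% of all genes, and these 10 made up 10.8% of the genes with such a fall. Without HS3ST2 replicate 3, 32 members were again called lower. When any 1 array was left out, 2025 to 2162 of all 19775 genes were called lower.

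The mean over the 36 members was -0.38, -0.42 and -0.36 in the HS3ST2-labelled arrays and 0.44, 0.47 and 0.33 in the control arrays. The HS3ST2-labelled arrays were thus close to each other, and control replicate 3 stood nearest to them. It had the lowest of the control values in 26 of the 32 members that fell, and in 43.1% of all genes called lower. For a typical member the SD over 3 arrays was 0.06 in the HS3ST2-labelled group and 0.10 in the control group (medians), against 0.07 and 0.08 over all genes. In RNA from whole cultures, fewer cells in mitosis and less RNA per mitotic cell cannot be told apart. MKI67, a nuclear protein of proliferating cells, fell by 0.74 ± 0.06 log2 (SE), and TOP2A, the topoisomerase that untangles sister chromatids, fell by 0.73 ± 0.11 (limma adjusted p 0.000108 and 0.00234). TOP2A was not called when represented by its probe set of largest SD (-0.55, adjusted p 0.257).

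**Figure D2:**
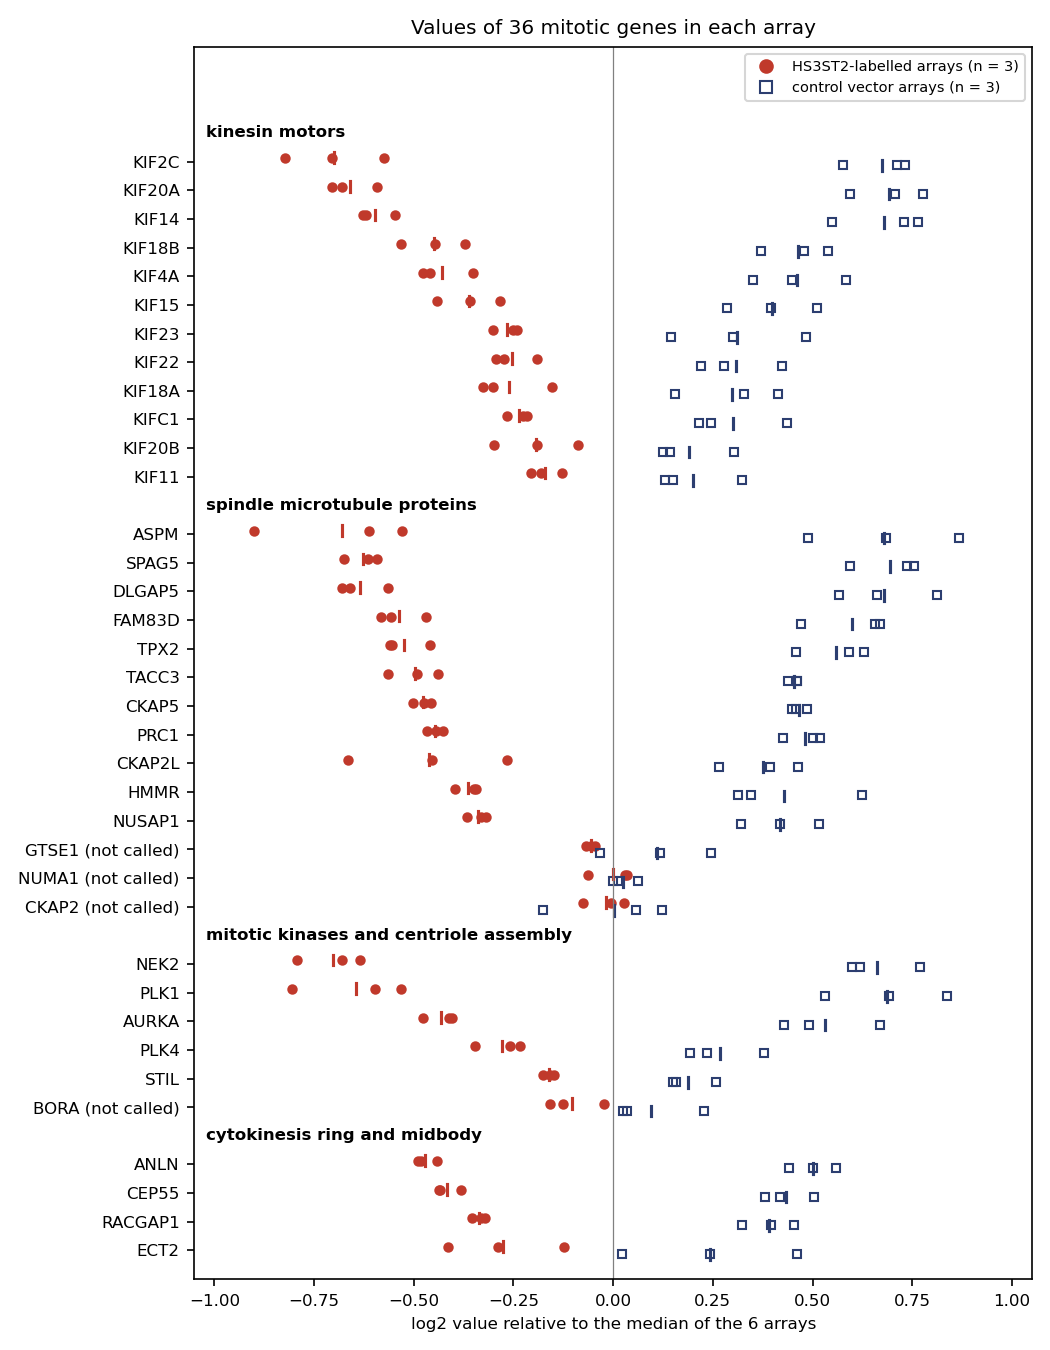
Each row is 1 of the 36 measured members, grouped by role and ordered by difference, and the horizontal axis is the log2 value relative to the median of the 6 arrays. Circles are the 3 HS3ST2-labelled arrays, squares the 3 control vector arrays and short bars the group means; the groups lie apart in 34 rows and overlap in CKAP2 and NUMA1.

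All 12 kinesins among the members fell, with differences from -1.37 to -0.37 log2. KIF2C, which removes tubulin from microtubule ends and corrects faulty chromosome attachments, was at -0.58, -0.82 and -0.71 in the HS3ST2-labelled arrays and at 0.71, 0.73 and 0.58 in the control arrays. It fell by 1.37 ± 0.08 log2 (SE), to 0.386 of the control level (limma adjusted p 2.22e-05), the largest fall among the members and rank 24 among all genes. KIF20A carries the chromosomal passenger complex to the central spindle. It was at -0.68, -0.71 and -0.59 in the HS3ST2-labelled arrays and at 0.71, 0.78 and 0.59 in the control arrays, a difference of -1.35 ± 0.07 (adjusted p 1.3e-05). KIF14, a midbody kinesin that works with citron kinase, was at -0.62, -0.63 and -0.55 in the HS3ST2-labelled arrays and at 0.76, 0.73 and 0.55 in the control arrays, and fell by 1.28 ± 0.07. In each of these genes the nearest arrays of the groups were more than 1 log2 apart.

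The other kinesins among the members fell by less than 1 log2. CENPE, a kinesin of kinetochores outside the member list, is given with the related genes below. KIF18B, which shortens astral microtubules, fell by 0.91 ± 0.07 log2 (SE), and KIF4A, a chromokinesin that sets the length of the central spindle with PRC1, fell by 0.89 ± 0.07. KIF15, which can back up KIF11 in holding the spindle poles apart, was at -0.36, -0.44 and -0.28 in the HS3ST2-labelled arrays and at 0.28, 0.51 and 0.40 in the control arrays, a difference of -0.76 ± 0.07. KIF23, the motor of centralspindlin, fell by 0.57 ± 0.08, and the chromokinesin KIF22 fell by 0.56 ± 0.07. KIF18A, which damps the movements of aligned chromosomes, fell by 0.56 ± 0.08, and KIFC1, a minus-end motor that gathers spindle poles, fell by 0.53 ± 0.07. The smallest falls were those of KIF20B, a kinesin of late cytokinesis, and KIF11. KIF11, which slides antiparallel microtubules and is needed for a bipolar spindle, was at -0.21, -0.18 and -0.13 in the HS3ST2-labelled arrays and at 0.15, 0.32 and 0.13 in the control arrays. It fell by 0.37 ± 0.07 (limma adjusted p 0.00471), and KIF20B fell by 0.38 ± 0.08 (adjusted p 0.00786). The 95% intervals of KIF11 (-0.53 to -0.22) and KIF2C (-1.55 to -1.20) do not meet, though the difference between these genes was not itself tested.

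Of the 14 spindle microtubule proteins, 11 fell and 3 did not pass. ASPM, which holds microtubule minus ends at the pole, was at -0.61, -0.90 and -0.53 in the HS3ST2-labelled arrays and at 0.87, 0.68 and 0.49 in the control arrays, a difference of -1.36 ± 0.12 log2 (SE, limma adjusted p 0.000182). SPAG5, or astrin, which secures kinetochore attachments, was at -0.59, -0.67 and -0.61 in the HS3ST2-labelled arrays and at 0.75, 0.74 and 0.59 in the control arrays. It fell by 1.32 ± 0.06 and had the smallest adjusted p of the members (1.17e-05). DLGAP5, or HURP, which stabilises kinetochore fibres, fell by 1.31 ± 0.07, and FAM83D, a spindle protein that binds KIF22, fell by 1.13 ± 0.07. TPX2, which activates AURKA on the spindle and starts microtubule growth around chromosomes, fell by 1.08 ± 0.06.

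TACC3 and CKAP5 act together, since the TACC3 complex cross-links kinetochore fibres and CKAP5 is a microtubule polymerase that binds it. TACC3 was at -0.44, -0.56 and -0.49 in the HS3ST2-labelled arrays and at 0.46, 0.46 and 0.44 in the control arrays. CKAP5 was at -0.46, -0.50 and -0.47 in the HS3ST2-labelled arrays and at 0.49, 0.46 and 0.45 in the control arrays. They fell by 0.95 ± 0.05 and 0.94 ± 0.05 log2 (SE, limma adjusted p 2.24e-05 and 1.75e-05), and CKAP5 had the smallest SE among the members. PRC1, which bundles the antiparallel microtubules of the central spindle, was at -0.43, -0.45 and -0.47 in the HS3ST2-labelled arrays and at 0.50, 0.52 and 0.43 in the control arrays, a difference of -0.93 ± 0.05. CKAP2L fell by 0.84 ± 0.10, HMMR, a spindle and hyaluronan-binding protein, by 0.79 ± 0.09, and NUSAP1, which bundles microtubules near chromosomes, by 0.76 ± 0.06.

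NUMA1, which focuses the spindle poles with dynein and also belongs to the interphase nucleus, did not pass. Its values were 0.03, -0.06 and 0.03 in the HS3ST2-labelled arrays and 0.00, 0.01 and 0.06 in the control arrays, so the groups overlapped. The difference was -0.02 ± 0.05 log2 (SE), with a 95% interval from -0.15 to 0.10 (limma adjusted p 0.796). CKAP2, a microtubule-stabilising protein and paralogue of CKAP2L, was at 0.03, -0.01 and -0.08 in the HS3ST2-labelled arrays and at 0.06, 0.12 and -0.18 in the control arrays. Its difference was -0.02 ± 0.08, with an interval from -0.21 to 0.17 (adjusted p 0.899), and the range of the control arrays covered all HS3ST2-labelled values. The intervals are those of the probe values, and signal over background is unknown for both genes. GTSE1, which limits the activity of KIF2C, was at -0.07, -0.06 and -0.05 in the HS3ST2-labelled arrays and at 0.24, 0.12 and -0.03 in the control arrays. The groups touched but did not overlap, and the difference was -0.17 ± 0.07 (interval -0.34 to 0.01, adjusted p 0.153). Without control replicate 3, which lay close to the HS3ST2-labelled arrays, GTSE1 was called lower (-0.24, adjusted p 0.0442).

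Among the mitotic kinases and centriole genes, 5 of 6 fell. NEK2, a kinase that lets the centrosomes part before mitosis, was at -0.68, -0.64 and -0.79 in the HS3ST2-labelled arrays and at 0.77, 0.62 and 0.60 in the control arrays, a difference of -1.37 ± 0.07 log2 (SE, limma adjusted p 1.57e-05). PLK1, a kinase of mitotic entry, spindle assembly and cytokinesis, was at -0.60, -0.80 and -0.53 in the HS3ST2-labelled arrays and at 0.53, 0.84 and 0.69 in the control arrays, and fell by 1.33 ± 0.10. AURKA, the kinase of centrosome maturation, was at -0.48, -0.41 and -0.40 in the HS3ST2-labelled arrays and at 0.49, 0.67 and 0.43 in the control arrays, and fell by 0.96 ± 0.07. The pair that starts centriole duplication, the kinase PLK4 and its partner STIL, fell by 0.55 ± 0.07 and 0.35 ± 0.05 (adjusted p 0.00078 and 0.00237). BORA, the cofactor with which AURKA activates PLK1, did not pass. Its values were -0.12, -0.16 and -0.02 in the HS3ST2-labelled arrays and 0.23, 0.02 and 0.03 in the control arrays, so control replicates 2 and 3 lay close to the HS3ST2-labelled arrays. The difference was -0.20 ± 0.07, with an interval from -0.37 to -0.03 (adjusted p 0.0876).

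All 4 measured genes of the contractile ring and midbody fell. ANLN, or anillin, the scaffold of the ring, was at -0.49, -0.48 and -0.44 in the HS3ST2-labelled arrays and at 0.50, 0.56 and 0.44 in the control arrays, a difference of -0.97 ± 0.05 log2 (SE, limma adjusted p 2.17e-05). CEP55, which recruits the abscission machinery to the midbody, was at -0.44, -0.38 and -0.43 in the HS3ST2-labelled arrays and at 0.50, 0.42 and 0.38 in the control arrays, a difference of -0.85 ± 0.06. RACGAP1, the partner of KIF23 in centralspindlin, was at -0.35, -0.32 and -0.33 in the HS3ST2-labelled arrays and at 0.45, 0.40 and 0.32 in the control arrays, and fell by 0.73 ± 0.05. These 3 genes varied little within a group. ECT2, the exchange factor that activates RhoA and is brought to the central spindle by RACGAP1, was at -0.41, -0.29 and -0.12 in the HS3ST2-labelled arrays and at 0.02, 0.46 and 0.24 in the control arrays. It fell by 0.52 ± 0.12 (adjusted p 0.0145). HS3ST2 replicate 3 and control replicate 1 lay close to each other, and ECT2 was not called without HS3ST2 replicate 1 (-0.45, adjusted p 0.0516).

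**Figure D3:**
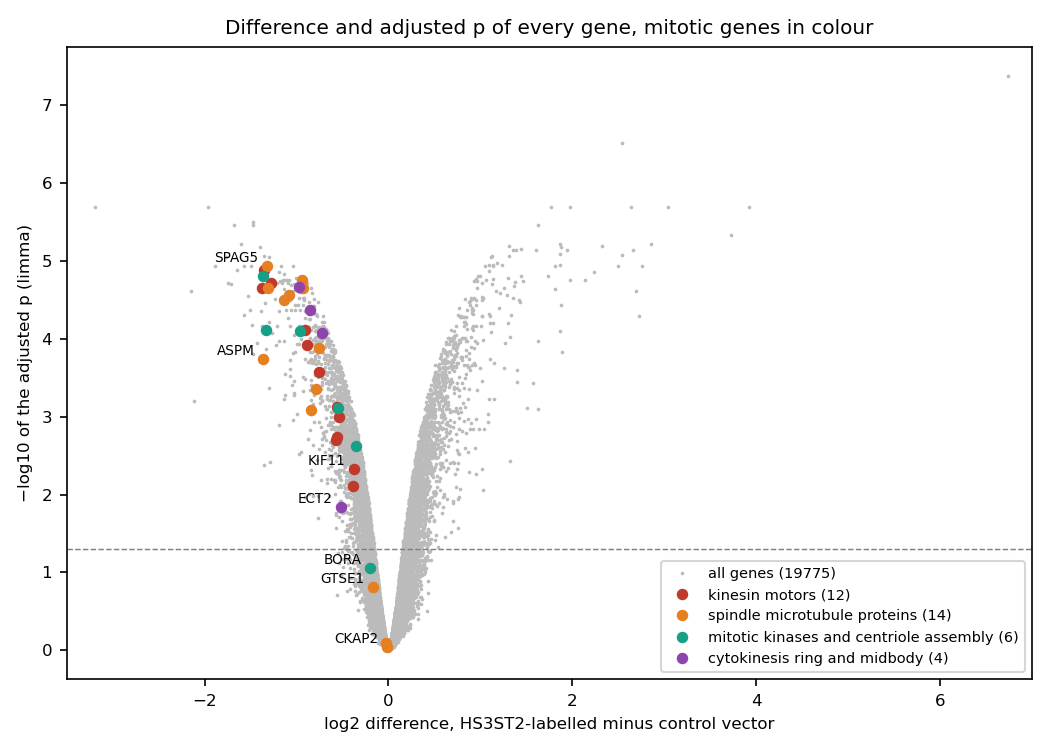
Each point is a gene, with the log2 difference, HS3ST2-labelled minus control vector, on the horizontal axis and −log10 of the limma adjusted p on the vertical axis; the dashed line is an adjusted p of 0.05. The 36 members are coloured by role over 19775 genes in grey, and 32 of them lie above the line on the left, from KIF11 at -0.37 to KIF2C at -1.37 and beside STIL at -0.35.

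Different probe sets of a gene read different stretches of its transcripts and give a check within each array. Of 65 member probe sets, 49 were called lower (75.4%), none was called higher and 16 were not called, when tested over all 54613 probe sets, of which 8.98% were called lower. The sign was negative in 62 and positive in 3, all 3 of NUMA1. Of 17 members with more than 1 probe set, all probe sets were called lower in 12, none in CKAP2 and NUMA1, and some in ECT2, GTSE1 and KIF20B. The 2 probe sets of CKAP5 gave -0.95 and -0.94, those of KIF14 -1.30 and -1.25, and those of KIF2C -1.40 and -1.34. In AURKA the probe sets 208079_s_at and 204092_s_at gave -1.19 and -1.07 and 208080_at, the only one left without _x_at and _s_at probe sets, gave -0.62.

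In 3 genes the probe sets did not give the same call. In KIF20B, 205235_s_at, its probe set of largest SD, gave -0.64 and was called, while 234748_x_at (-0.35) and 234744_x_at (-0.16) were not. In ECT2, 234992_x_at gave -0.53 and was called, whereas 219787_s_at gave -0.20 and 237241_at gave -0.83 with a wide interval, neither being called. ECT2 was therefore not called when probe sets ending in _x_at and _s_at were left out (-0.83, limma adjusted p 0.113). In GTSE1, 215942_s_at (-0.35) and 204318_s_at (-0.28) were called lower, while 211040_x_at (-0.12), 204315_s_at (-0.05) and 229343_at (-0.04) were not. The 3 CKAP2 probe sets lay between -0.04 and 0.00, and the 5 NUMA1 probe sets between -0.15 and 0.05. Probe sets ending in _x_at or _s_at can match more than 1 transcript or gene.

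**Figure D4:**
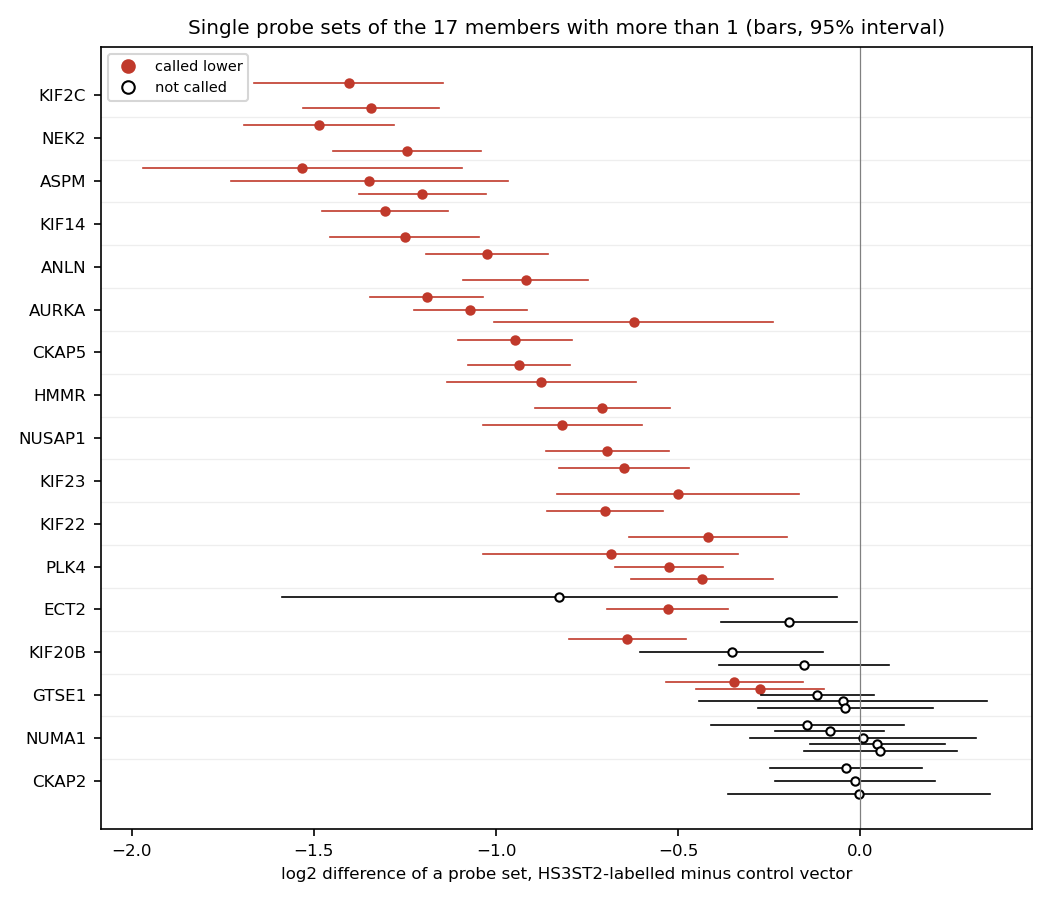
Each point is a probe set of 1 of the 17 members with more than 1, at its log2 difference, HS3ST2-labelled minus control vector, with its 95% interval. Filled points were called lower and open points were not called; in 12 genes all points are filled, and the points of CKAP2 and NUMA1 lie around 0.

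The members that fell lie on 16 chromosomes. The 10 measured genes on each side of a member in gene order (added after the data were seen) had a median difference between -0.12 and 0.11 log2 for all 36 members, against -0.10 to 0.11 for the 5th to 95th percentile of all placed genes. Among the 20 neighbours of a member, 0 to 7 were called lower and 0 to 6 higher, against 13.0% lower and 11.5% higher over all genes. SPAG5 on chromosome 17 had the most neighbours called lower, 7 with none higher. PLK1 had 6 lower with none higher, and KIF20A had 6 lower and 5 higher. The neighbour medians of PLK1 (-0.106) and RACGAP1 (-0.116, with 5 lower and none higher) lay below the 5th percentile of all placed genes. Those of PRC1 (0.114) and KIF20B (0.113) lay above the 95th (0.111). Neighbours called higher were found beside members that fell and beside members that did not pass. KIF22 and PRC1, which fell, had 5 each, and BORA and CKAP2, which did not pass, had 6 and 4.

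Related genes outside the list were counted in the same way. Of the 4 proteins of the chromosomal passenger complex, which corrects attachments and then moves to the midzone with KIF20A, 3 fell. BIRC5, or survivin, fell by 0.97 ± 0.06 log2 (SE), CDCA8, or borealin, by 0.97 ± 0.06 and the kinase AURKB by 0.72 ± 0.06, or -1.16 by its probe set of largest SD (limma adjusted p 2.98e-05, 4.33e-05 and 0.000136). INCENP, the scaffold, was at 0.09, -0.26 and -0.29 in the HS3ST2-labelled arrays and at 0.59, -0.09 and 0.10 in the control arrays and did not pass (-0.35 ± 0.17, adjusted p 0.195). Without control replicate 1, its highest array, INCENP was at -0.16. Of 16 genes of augmin and the gamma-tubulin ring complex, which nucleate spindle microtubules, 6 fell and none rose by limma (8 and 1 at an unadjusted p under 0.05), while 1 rose by the probe sets of largest SD. HAUS8 fell by 0.73 ± 0.07, HAUS7 by 0.70 ± 0.07 and TUBG1, gamma-tubulin, by 0.55 ± 0.05. The medians of the passenger and the nucleation lists were -0.84 and -0.14.

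A list of 35 other kinesin genes, called the other kinesins below, also held genes of kinesin light chains and a kinesin-associated protein. Most of these genes act in cargo transport in interphase. Of the 35, 6 fell and 2 rose, with a median of -0.03 log2. Only 3 fell when HS3ST2 replicate 1, control replicate 1 or control replicate 2 was left out. CENPE, the kinesin of kinetochores, fell by 1.12 ± 0.06 (SE), the largest fall in that list, and KIF2A, a relative of KIF2C, fell by 0.39 ± 0.06. KIF7, a kinesin of the primary cilium, rose by 0.44 ± 0.07. Among 13 alpha and beta tubulins, 8 fell and 1 rose, with a median of -0.43. TUBB4B fell by 0.80 ± 0.05, TUBB3 by 0.68 ± 0.05 and TUBB2A by 0.65 ± 0.05. The gene that rose was TUBB2B (1.00 ± 0.09), named after its value was seen. Tubulin genes are near-identical in their coding parts, so their probe sets can share signal, and 3 of 8 fell and none rose without probe sets ending in _x_at and _s_at. TUBB2B, TUBB3 and TUBB4B were not measured in that setting.

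Of 24 other genes of cytokinesis and abscission, 8 fell and 2 rose, with a median of -0.04 log2. TSG101, an ESCRT protein that CEP55 recruits, fell by 0.37 ± 0.05 (SE), the formin DIAPH3 fell by 0.27 ± 0.05 and SEPTIN6 rose by 0.41 ± 0.06. DIAPH3 was at -0.43 by its probe set of largest SD and at -0.44 without probe sets ending in _x_at and _s_at, where 5 genes of the list fell. In this list 4 fell without HS3ST2 replicate 1, HS3ST2 replicate 2 or control replicate 1, 3 fell without control replicate 2, and 1 rose without HS3ST2 replicate 1, HS3ST2 replicate 3, control replicate 1 or control replicate 2. Of 17 genes of centriole duplication and the centrosome scaffold, 3 fell and none rose by limma (6 and none at an unadjusted p under 0.05), with a median of -0.10. POC1A, a centriole protein, fell by 0.62 ± 0.08, CEP250, which links centrosomes and is a target of NEK2, by 0.26 ± 0.05, and SASS6, the hub of the centriole cartwheel, by 0.18 ± 0.05 (adjusted p 0.0358). SASS6 was not called when any 1 array was left out (adjusted p 0.0631 to 0.107).

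Of 22 genes of dynein, dynactin and microtubule end factors, 8 fell and none rose by limma (11 and 2 at an unadjusted p under 0.05), with a median of -0.10 log2. GPSM2, which anchors NUMA1 and dynein at the cell cortex, fell by 0.50 ± 0.06 (SE), DYNLT1, a dynein light chain, by 0.49 ± 0.06 and NDE1, a dynein cofactor, by 0.43 ± 0.06. By its probe set of largest SD, NDE1 was at -1.17. Without HS3ST2 replicate 2, 4 fell, and without HS3ST2 replicate 3, 5 fell. The choice of probe set also moved this list. Without probe sets ending in _x_at and _s_at, 3 fell and 1 rose, but DYNLT1 was then not measured. When each gene was represented by its probe set of largest SD, 4 rose. Of 16 regulators of transcription in G2 and M phase, 4 fell and 4 rose, with a median of -0.02. Without control replicate 2, 2 rose, and without probe sets ending in _x_at and _s_at, where FOXM1 was not measured, 2 fell. FOXM1 was at -0.31, -0.35 and -0.42 in the HS3ST2-labelled arrays and at 0.48, 0.31 and 0.42 in the control arrays and fell by 0.76 ± 0.06 (limma adjusted p 0.000136). MYBL2 fell by 0.37 ± 0.07 (adjusted p 0.00792), and RBL2, the p130 pocket protein of the repressing form of the complex, rose by 0.53 ± 0.06 (adjusted p 0.0005). The other called genes of this list were RBL1 (-0.32) and CDKN1A (-0.25), which fell, and TFDP1 (0.28), NFYA (0.26) and NFYB (0.20), which rose. NFYA and NFYB encode parts of NF-Y. The MuvB genes LIN9, LIN37, LIN52, LIN54 and RBBP4 were not called. Percentages of these lists called lower, from 17.1% for the other kinesins to 75.0% for the passenger complex, stand beside 13.0% of all genes and 88.9% of the members.

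**Figure D5:**
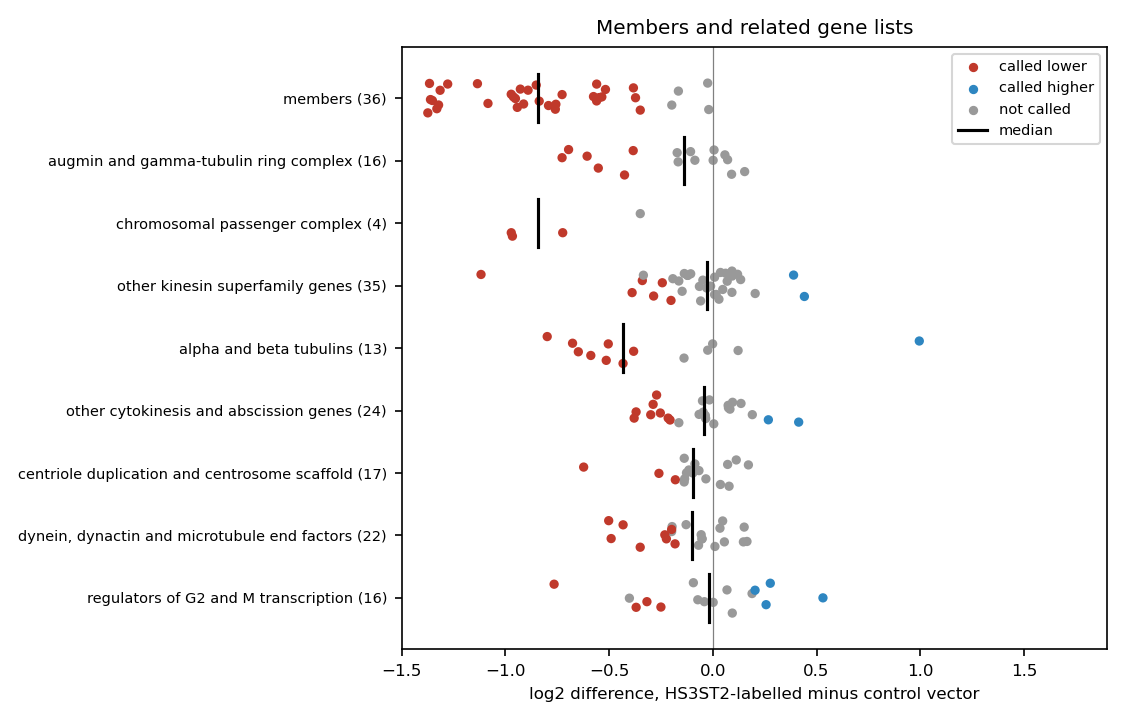
Each point is a gene at its log2 difference, HS3ST2-labelled minus control vector, in the 36 members and in 8 related lists; red, called lower; blue, called higher; grey, not called; black bars, medians. The medians run from -0.84 in the members and the passenger complex to -0.43 in the tubulins and between -0.14 and -0.02 in the other lists.

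Markers of the line's own mesenchymal type and of other cell types were examined as lists. Their counts stand beside 11.5% of all genes called higher and 13.0% called lower. Of 12 luminal epithelial markers, 4 rose and none fell by limma (6 and 1 at an unadjusted p under 0.05), and the mean of the list was 0.28 to 0.31 in the HS3ST2-labelled arrays and -0.35 to -0.27 in the control arrays. That mean rested on a few genes, named here after their values were seen. TFF1 rose by 3.04 log2, TFF3 by 2.54 and AGR2 by 0.85, while the other 9 lay between -0.14 and 0.27 and the median of the list was 0.17. Of 3 basal markers 1 rose (CDH3, by 2.32), and of 7 leukocyte markers 3 rose and 1 fell, with list means of 0.11 to 0.17 in the HS3ST2-labelled arrays and -0.14 to -0.09 in the control arrays. The leukocyte mean rested largely on ITGB2, which rose by 1.11, and LCP1, which rose by 0.78, and PTPRC, the common leukocyte antigen, was at -0.08 and did not pass. None of 8 fibroblast markers was called by limma or reached an unadjusted p under 0.05, and of 7 markers of mesenchymal breast cancer lines 1 rose and 2 fell. The part of these markers in the lower values of the mitotic genes was not tested.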

How the data were processed

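RNA of 6 MDA-MB-231 samples was hybridised to Affymetrix arrays, with 3 HS3ST2-labelled and 3 control vector arrays grouped by sample title. Per the submitters' processing notes the authors used RMA, and the deposited values were read as log2. The median over the 6 arrays was 0 for every probe set in the file, so levels are lost, and no source names the software that did this. The number of arrays limits the precision.

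Of 54675 probe sets, 62 controls were set aside. The 41091 with 1 symbol in GEO's platform annotation, of which 41037 were matched to a current gene record, were averaged per gene. Groups were compared in R 4.3.3 with limma 3.58.1 (two-sided, lmFit then eBayes) with no covariate over 19775 genes, and over 54613 probe sets, with Benjamini-Hochberg adjustment at 0.05. The test was tried on simulated data with noise drawn independently for each gene, so that trial does not cover genes that vary together. RefSeq promoters (GRCh38.p14) were searched in Python 3.11.15. The named genes are the 37 members, HS3ST2, MKI67, TOP2A, the passenger complex and, per related list, at most 3 called genes with the smallest p. Of the transcription regulators, the other called genes and the MuvB genes are also named, after their values were seen. Members and lists were chosen with earlier results of these data known. Alternatives covered arrays left out, a replicate block, normalization, array weights, robust eBayes, thresholds and the choice of probe sets.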

Additional observations from a re-analysis of the deposited data

How the results depend on the processing

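Across every alternative run, no member was called higher. The count of members called lower was 31 to 33 when 1 array was left out, 32 with the replicate block, quantile normalization, median centring, array weights or robust eBayes, 31 at an adjusted p under 0.01 or when the largest-SD probe set stood for the gene, 29 when at least 0.5 log2 was also required, 33 by single probe sets and 24 of 29 when probe sets ending in _x_at or _s_at were dropped. By single probe sets, a gene counted as called where at least 1 of its probe sets was called, which is a looser rule. Of the 32 called members, 28 were called lower in all alternatives where they were measured. The exceptions were ECT2 and, under the 0.5 log2 limit, KIF11, KIF20B and STIL. The sign of 2 uncalled members turned: CKAP2 was at 0.0096 without HS3ST2 replicate 3, 0.0084 without control replicate 1 and 0.041 without control replicate 2, ranging from -0.11 to 0.041 over the arrays left out, and NUMA1 was at 0.0072 without HS3ST2 replicate 2, ranged from -0.042 to 0.0072, and was at 0.0061 by its largest-SD probe set. The count of all genes called lower was 1555 and of all genes called higher 1285 at an adjusted p under 0.01, 615 and 542 with at least 0.5 log2, and 1661 lower when probe sets of those endings were dropped, where fewer genes were tested. With the replicate block, 5 cytokinesis and 5 dynein genes fell and INCENP was called (limma adjusted p 0.026). Deviations of same-numbered arrays from their group means correlated at 0.12, 0.05 and -0.08, and those of differently numbered arrays at -0.17 to 0.14. These values cannot show whether same-numbered arrays share a batch, and no label says that they do. Leaving out 1 array gave 3 to 6 other kinesins lower, 3 to 7 cytokinesis genes lower and 1 to 2 higher, 4 to 8 dynein genes lower and 2 to 4 transcription regulators higher. With probe sets ending in _x_at or _s_at dropped, 3 tubulins were lower and 0 higher, 5 cytokinesis genes lower, 3 dynein genes lower and 1 higher, and 2 transcription regulators lower. Some genes, TUBB2B, DYNLT1 and FOXM1 among them, were then no longer measured. By the largest-SD probe sets, 1 augmin or ring complex gene and 4 dynein genes were higher. Causes of these changes were not tested. With levels centred away, signal over background is unknown, and for an uncalled gene a dim signal and a small difference cannot be told apart.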

Other observations

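Some probe sets list a member together with another gene and entered no gene value. Of 2 annotated to MIR1178 and CIT, 212801_at was at -0.12, -0.24 and -0.16 in the HS3ST2-labelled arrays and at 0.19, 0.12 and 0.26 in the control arrays and was called lower (-0.36 ± 0.07 log2, SE, limma adjusted p 0.0106), while 242872_at was not (-0.21 ± 0.11, adjusted p 0.239). The probe set 204317_at, annotated to TRMU and GTSE1, was called lower (-0.32 ± 0.07, adjusted p 0.0191). The 6 probe sets that list CKAP2 with immunoglobulin lambda genes lay between -0.06 and 0.07, and none was called by limma or reached an unadjusted p under 0.05.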
